A study of Mus musculus with 6 samples.

Results

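Interferon-stimulated genes were followed in mouse bone marrow cultures, on 6 single-colour Agilent expression arrays. A gene counted as a member when a non-control probe carried its name, and 41 names were looked for. The arrays named 40 of them (Ifitm2 was not analysed here), and 39 were tested among 21860 genes in all, because Ifi44 was well above background on 1 of the 6 arrays. All cells came from bone marrow of female C57BL/6J mice aged 6 to 8 weeks and were grown with granulocyte-macrophage colony-stimulating factor (GM-CSF), with 2 arrays for each of 3 groups. The conventional myeloid-derived suppressor cells, MDSC (conv.), were whole marrow kept for 4 days with 40 ng/mL GM-CSF on tissue culture dishes. The 6G- BM-MDSC were made the same way from marrow from which Ly-6G+ cells had first been removed with magnetic beads. The dendritic cells (DCs) were cultured for 8 days with 20 ng/mL GM-CSF in dishes not treated for tissue culture, so the DC comparisons differ in dose, time and dish together. The sources used here name no added interferon.

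Type I and type III interferons act on their receptors through the kinases JAK1 and TYK2 and transcription factors that include STAT2 and IRF9, which bind the interferon-stimulated response element in the promoters of target genes. Interferon gamma signals through the kinases JAK1 and JAK2. Many target genes are also transcribed at a low level without added interferon, and their products restrict viruses, sense foreign nucleic acid, or switch the pathway off again. In C57BL/6 mice the Mx1 and Mx2 genes are known to be defective at the protein level, so their RNA serves as a readout of the pathway rather than of the proteins.

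The response element is shown first. Members were chosen as interferon-stimulated genes, and the element lies in promoters of interferon target genes. A larger share among members than among all genes therefore follows in part from the choice and is not a separate finding. RefSeq promoter sequences (build GRCm38.p6) were matched by symbol for 30 of the 41 members, and the 250 bases before each start site were searched on both strands for the core GAAA, any 2 bases, GAAA, with overlapping matches counted. The core was found for 14 of the 30 members (46.7%) and for 936 of all 27025 genes with a promoter entry (3.46%). Among members with an entry, it was found for 7 of the 9 that were lower than DCs in both MDSC groups. It was found for 0 of the 2 that were higher in both (Cmpk2 and Ddx58), and for 7 of the other 19. Those 19 include Ifitm2, which held a match, and Ifi44, and neither of these was tested for expression. They also include members called in 1 comparison, such as Igtp. A match is a description of the letters and not of a bound site. The windows below hold the core in capitals with 10 bases on each side, read 5′ to 3′ on the strand that carries it. Where a promoter held overlapping matches, 1 of them is in capitals. The first 7 lines are the members lower in both MDSC groups, Igtp is the member higher in 6G- BM-MDSC alone, and the last 3 are members called in neither comparison.
Isg15 (chr4:156200871-156200900, - strand): gtaggaaaagGAAACCGAAAcagaaaatag
Bst2 (chr8:71537577-71537606, - strand): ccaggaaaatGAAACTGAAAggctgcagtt
Ifit3 (chr19:34583397-34583426, - strand): gaggaaagtaGAAACTGAAAcagacttaaa
Gbp2 (chr3:142620594-142620623, - strand): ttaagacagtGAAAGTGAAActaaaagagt
Gbp3 (chr3:142559989-142560018, - strand): ctgggaaataGAAACTGAAActgtgtcctg
Irgm1 (chr11:48871425-48871454, - strand): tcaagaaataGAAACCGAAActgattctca
Stat2 (chr10:128270266-128270295, - strand): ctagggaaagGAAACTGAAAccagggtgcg
Igtp (chr11:58199512-58199541, + strand): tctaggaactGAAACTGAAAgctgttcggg
Ifit1 (chr19:34640794-34640823, - strand): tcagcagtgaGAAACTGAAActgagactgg
Oas3 (chr5:120777715-120777744, - strand): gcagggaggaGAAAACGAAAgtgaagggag
Rsad2 (chr12:26456553-26456582, + strand): tctgttttctGAAAATGAAAgttggaccag
The promoters of Isg15 and Bst2 held 3 and 2 matches, and those of Ifit1 and Rsad2 held 2 and 1. Members called and not called against DCs therefore both carried the core. Dhx58, Ifi27l2a, Iigp1, Mx1, Mx2, Oas2, Parp14, Parp9, Rtp4, Usp18 and Zbp1 were not searched.

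All values below are scaled signals, the log2 of an array's processed intensity over the 75th percentile of that array, so that 0 is a signal equal to that percentile. The percentile lay between 560.2 and 633.3 intensity units, and 55.6% to 59.9% of probes were well above background, with 0 saturated spots. All 6 arrays sat on 1 slide and were scanned in 1 session. The MDSC arrays lay in row 1 of the slide and the DC arrays in row 2, so a row effect and a difference from DCs cannot be told apart. Nothing in the labels says that replicates were separate cultures or animals, so p-values measure the spread between these arrays, which may be technical.

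Of all genes tested, 13.4% were higher and 15.8% lower than DCs in MDSC (conv.) at an adjusted p below 0.05 in limma. For 6G- BM-MDSC the shares were 15.0% and 17.8%. The labelled cell types differed in their markers as follows. Of 12 neutrophil markers, 10 were above DCs in each MDSC group and 0 were below. Ly6g, the surface antigen used for the depletion, had scaled signals of 1.95 and 1.96 for MDSC (conv.), 1.71 and 1.86 for 6G- BM-MDSC and -1.94 and -2.19 for DCs. Of 13 conventional dendritic cell markers, 12 were lower in each MDSC group, among them Zbtb46 and Ciita, and Flt3 was higher in 6G- BM-MDSC (0.50, adjusted p = 0.0155). Of 8 macrophage markers, 5 were lower and 1 higher for MDSC (conv.), and 6 were lower and 1 higher for 6G- BM-MDSC. They ranged from the complement gene C1qa, with log2 differences of -4.10 and -4.18, to the nuclear receptor gene Pparg, with 0.63 and 0.75 (adjusted p = 0.0294 and 0.0167). In these bulk RNA samples, fewer cells of a type and less RNA per cell cannot be told apart.

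More interferon-stimulated genes were called lower than higher in the MDSC against the DCs, and 16 of the 39 tested members were called in neither comparison. In MDSC (conv.), 17 members were lower (against 15.8% of all genes tested) and 3 were higher (against 13.4% of all genes) at an adjusted p below 0.05 in limma, which is what called means below. In 6G- BM-MDSC, 17 were lower (against 17.8% of all genes) and 4 were higher (against 15.0% of all genes). The median member difference was -0.39 for MDSC (conv.), beside -0.03 over all genes, while 6G- BM-MDSC had -0.43, beside -0.04. Differences below 0 were found for 30 of the 39 members in each comparison, where 53.3% of all genes were below 0. Both comparisons used the same 2 DC arrays and are not independent of each other. Called in both were 15 members as lower and 3 as higher (Cmpk2, Oas2 and Ddx58). Among all genes, 13.1% were lower in both and 11.3% were higher in both.

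**Figure D1:**
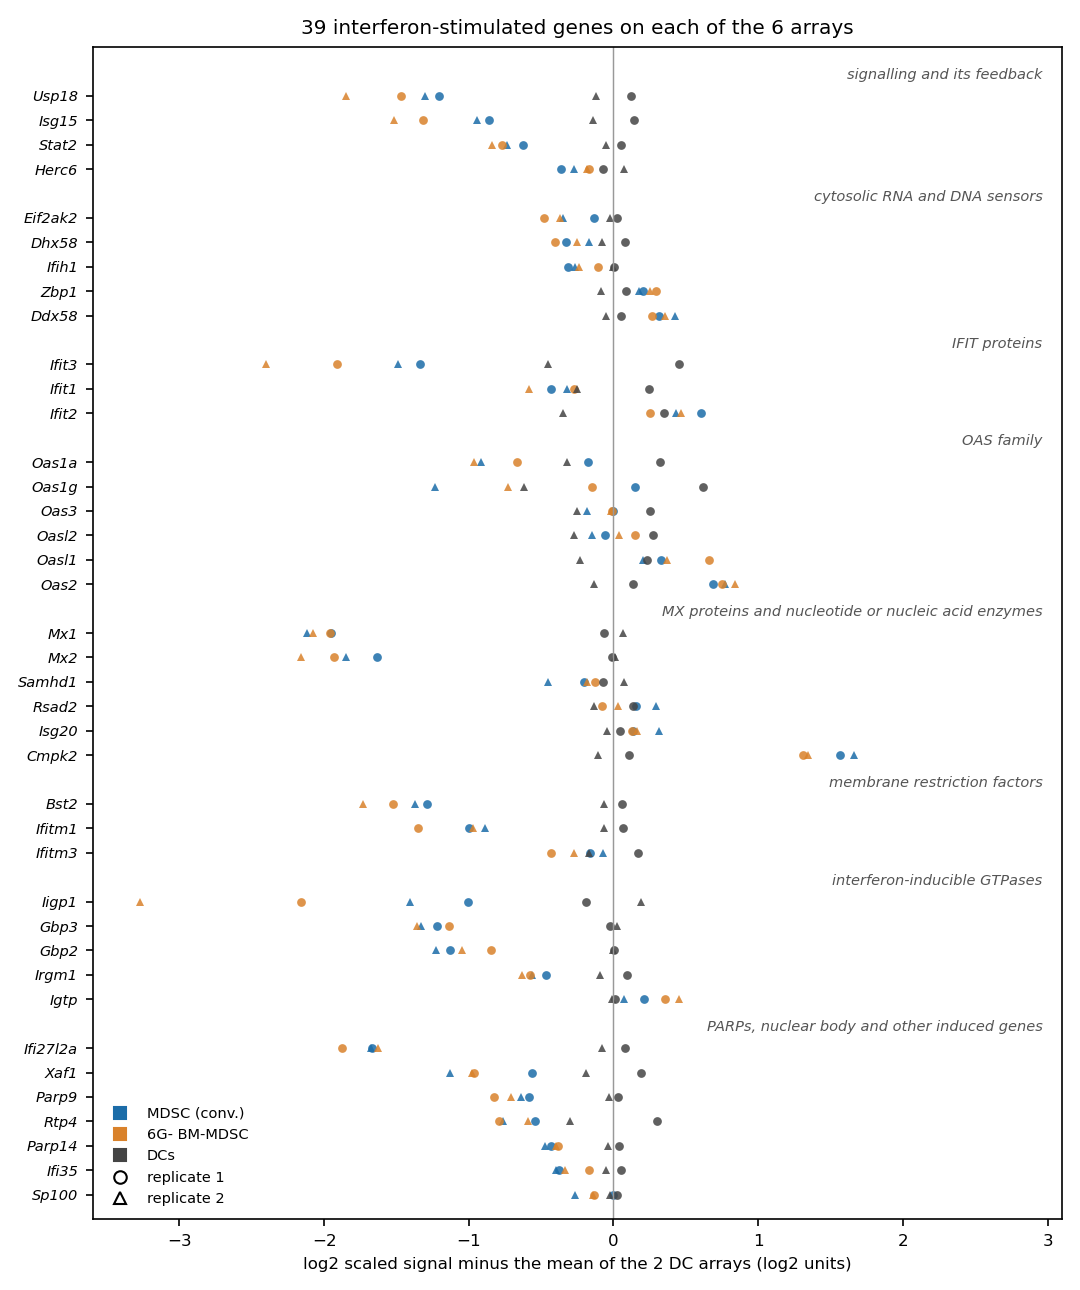
Scaled signal of each of the 39 tested interferon-stimulated genes on each of the 6 arrays, minus the mean of the 2 DC arrays (x axis, log2 units), grouped by role. Colours mark the groups and symbols the replicates. Mx1, Mx2 and Ifi27l2a lie more than 1.5 units to the left on all 4 MDSC arrays, and Cmpk2 lies more than 1 unit to the right on all 4.

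**Figure D2:**
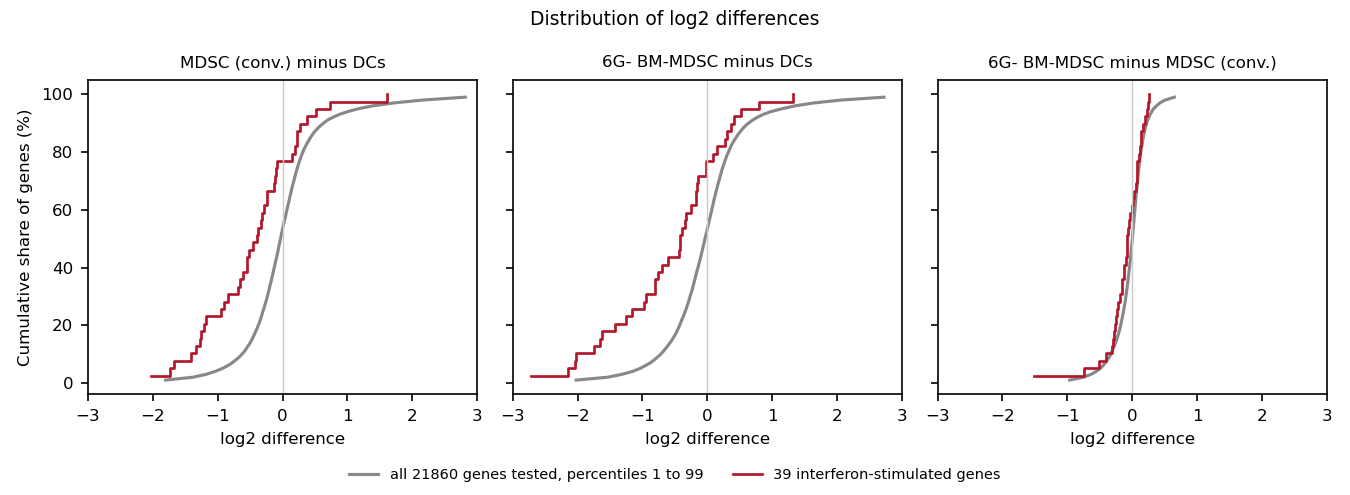
Cumulative share of genes (y axis, %) by log2 difference (x axis) in the 3 comparisons, for the 39 interferon-stimulated genes and for percentiles 1 to 99 of all genes tested. The member curve lies to the left of the curve for all genes over most of its length in both DC comparisons, and close to it between the MDSC groups.

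Neutrophil, dendritic cell and macrophage markers, among others, moved with the same contrast. The log2 of the summed scaled signal of the 12 neutrophil markers was at least 10.4 on the MDSC arrays and at most 9.14 on the DC arrays. For the 13 dendritic cell markers it was 10.1 to 10.2 and 10.9, and for the 8 macrophage markers 5.55 to 5.66 and 6.76 to 6.91. Every marker of these 3 lists was detected, so none was at background on all arrays. Their part in the member differences was not tested.

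The members that carry or restrain the signal were lower in MDSC (conv.), and 3 of the 4 also in 6G- BM-MDSC. STAT2, ISG15, the ubiquitin-like protein induced by interferon, USP18, the protease that removes ISG15 and dampens receptor signalling, and HERC6, the mouse ligase for ISG15, make up this group. Usp18 had scaled signals of 1.07 and 0.97 for MDSC (conv.), 0.81 and 0.43 for 6G- BM-MDSC and 2.40 and 2.15 for DCs. The DC arrays stood above all 4 MDSC arrays, by 2.38-fold over MDSC (conv.) (log2 difference -1.25, SE 0.16, adjusted p = 0.00646 in limma) and by 3.15-fold over 6G- BM-MDSC (-1.66, SE 0.16, adjusted p = 0.00284). Isg15 read 1.06 and 0.98, then 0.60 and 0.40, then 2.06 and 1.78 in the same order of groups. Its 3 groups did not overlap, and the differences from DCs were -0.90 (SE 0.13, adjusted p = 0.00901) and -1.42 (SE 0.13, adjusted p = 0.00248). Stat2 was lower by 0.68 and 0.80 on the log2 scale (adjusted p = 0.00635 and 0.00375). Herc6 was lower in MDSC (conv.) alone, by a log2 difference of -0.32 (adjusted p = 0.0484), and read -0.18 in 6G- BM-MDSC (adjusted p = 0.174). The Herc6 call was lost under 11 of 19 alternative settings.

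Both dynamin-like MX GTPases were lower in both MDSC groups. Mx1, on chromosome 16, had scaled signals of 3.02 and 2.86 for MDSC (conv.), 3.02 and 2.90 for 6G- BM-MDSC and 4.91 and 5.04 for DCs. Both MDSC groups overlapped each other and lay below both DC arrays, by 4.10-fold (log2 difference -2.03, SE 0.10, adjusted p = 0.000542) and 4.05-fold (-2.02, SE 0.10, adjusted p = 0.00052). Its neighbour Mx2, also on chromosome 16, read -1.34 and -1.56, then -1.64 and -1.87, then 0.28 and 0.30. Mx2 was 3.35-fold lower in MDSC (conv.) (adjusted p = 0.00118) and 4.13-fold lower in 6G- BM-MDSC (adjusted p = 0.00077). A second, dimmer Mx1 probe differed by -1.86 and -2.17.

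Not every enzyme that acts on nucleotides or nucleic acids followed. Cmpk2, a mitochondrial nucleotide kinase, had the largest difference in the opposite direction. Its scaled signals were 0.21 and 0.30 for MDSC (conv.), -0.05 and -0.01 for 6G- BM-MDSC and -1.25 and -1.47 for DCs. Cmpk2 was thus 3.06-fold higher in MDSC (conv.) (log2 difference 1.61, SE 0.10, adjusted p = 0.000911) and 2.51-fold higher in 6G- BM-MDSC (1.33, SE 0.10, adjusted p = 0.00147). Rsad2, which encodes viperin and lies on chromosome 12 as Cmpk2 does, read -2.39 and -2.25, then -2.62 and -2.51, then -2.41 and -2.68, and was not called (adjusted p = 0.229 and 0.891). The deoxynucleotide hydrolase Samhd1 read 5.20 and 4.96, then 5.28 and 5.22, then 5.34 and 5.48, and was not called (adjusted p = 0.0907 and 0.334). The exonuclease Isg20 differed by 0.23 and 0.15, with no call.

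**Figure D3:**
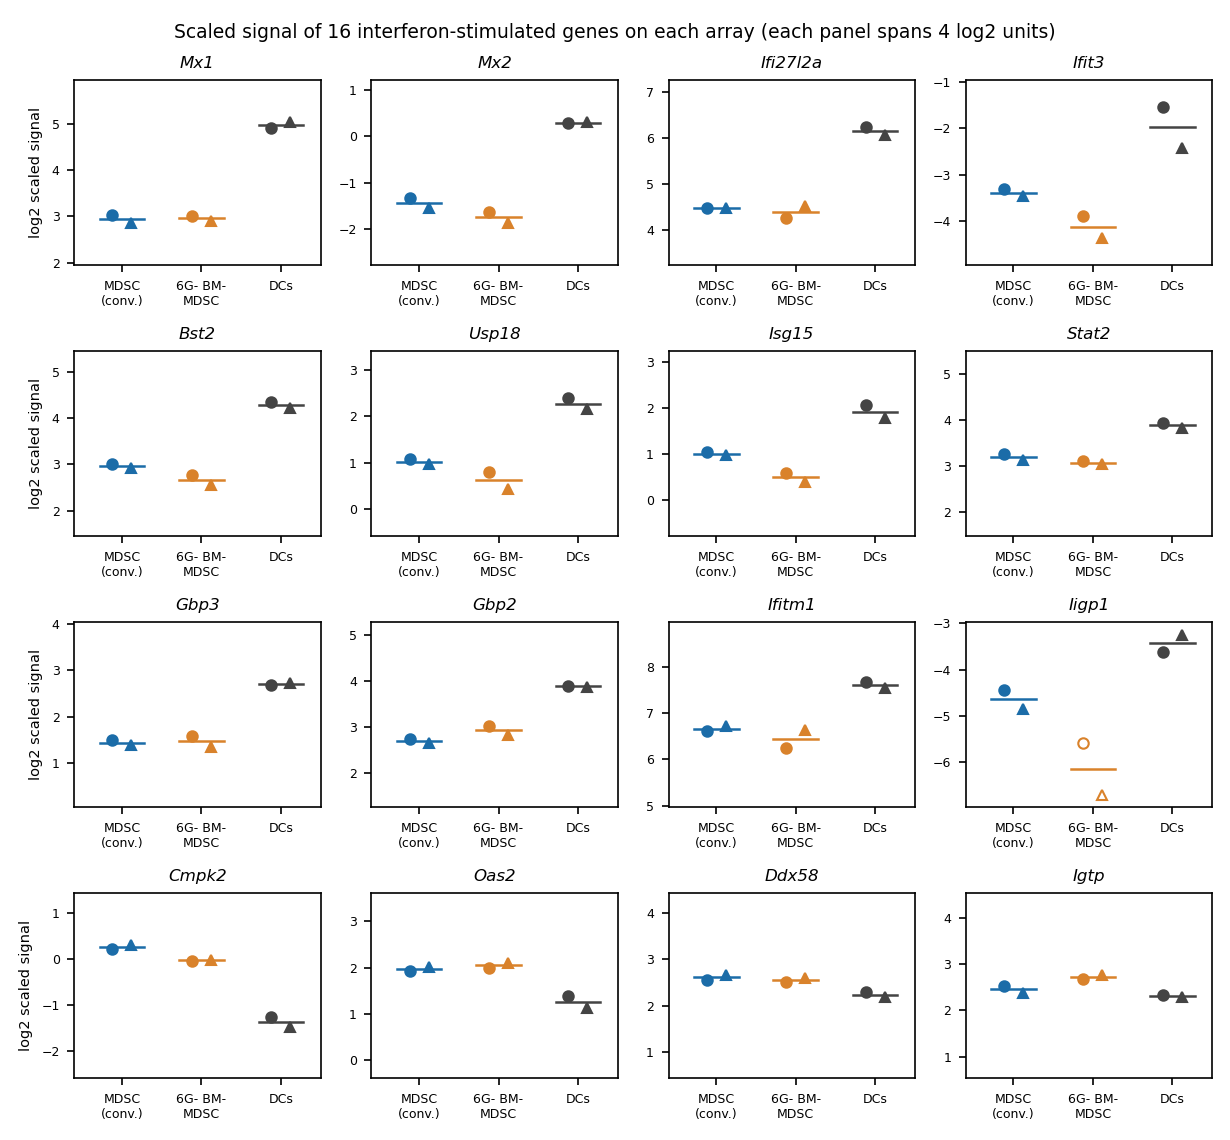
Log2 scaled signal (y axis) of 16 interferon-stimulated genes on each array by group (x axis); circles are replicate 1, triangles replicate 2, lines group means, and open symbols a group in which no array was well above background. The 12 panels from Mx1 to Iigp1 have the DC arrays on top, and in the last 4 (Cmpk2, Oas2, Ddx58, Igtp) the MDSC arrays are higher.

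Of the 3 IFIT genes, whose products bind foreign RNA, Ifit3 was called and Ifit1 and Ifit2 were not. Ifit3 had scaled signals of -3.32 and -3.47 for MDSC (conv.), -3.89 and -4.38 for 6G- BM-MDSC and -1.53 and -2.43 for DCs. The DC arrays differed from each other by more than the arrays of either MDSC group did, and still lay above all of them, with differences of -1.41 (SE 0.33, adjusted p = 0.0349) and -2.15 (SE 0.33, adjusted p = 0.0103). The call in MDSC (conv.) was lost under 9 of 19 alternative settings. Ifit3 has a near-identical neighbour, Ifit3b, and their probes may not tell them apart. Ifit1 differed by -0.38 and -0.43 (adjusted p = 0.218 and 0.164), and Ifit2 by 0.52 and 0.36 (adjusted p = 0.18 and 0.31).

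In the OAS family, the synthetases that activate RNase L and their relatives, Oas2 was higher in the MDSC and the other 5 tested members were not called. Oas2 had scaled signals from 1.94 to 2.09 over the 4 MDSC arrays, against 1.39 and 1.11 for DCs. All 4 MDSC arrays lay above both DC arrays, by 1.66-fold (adjusted p = 0.0122) and 1.74-fold (adjusted p = 0.00882). Oas1a and Oas1g, closely related copies that may share probe signal, stood out by the gap between replicates. Oas1g read -2.06 and -3.44 for MDSC (conv.), -2.36 and -2.94 for 6G- BM-MDSC and -1.59 and -2.83 for DCs. Replicate 1 was the higher in every group, and the differences of -0.54 and -0.44 were smaller than their standard error of 0.62. Oas3, Oasl1 and Oasl2 differed by -0.10 to 0.51, with adjusted p from 0.0988 to 0.956.

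Of the 5 cytosolic sensors, 1 was higher in both MDSC groups and 1 was lower in 6G- BM-MDSC alone. Ddx58 (RIG-I), the sensor of viral RNA ends, was higher in the MDSC, at 2.56 and 2.67 for MDSC (conv.), 2.51 and 2.60 for 6G- BM-MDSC and 2.29 and 2.19 for DCs. Its differences of 0.37 and 0.31 (adjusted p = 0.0338 and 0.0493) were small, and the calls were lost under 10 and 12 of 19 alternatives. Eif2ak2, which encodes the RNA-activated kinase PKR, read 1.08 and 0.86, then 0.73 and 0.84, then 1.24 and 1.19, and was lower in 6G- BM-MDSC alone (-0.43, adjusted p = 0.0332), a call lost under 7 of 19 alternatives. The related helicases Ifih1 (MDA5) and Dhx58 (LGP2) differed by -0.33 to -0.17 and were not called. The nucleic acid sensor Zbp1 was not called by its brighter probe (0.19 and 0.27, adjusted p = 0.183 and 0.0789 when probes were tested one by one), whereas its dimmer probe differed by -1.04 and -1.58 (adjusted p = 0.0181 and 0.00536), so its direction depended on the probe.

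Among the membrane restriction factors, Bst2 and Ifitm1 were lower in the MDSC and Ifitm3 was not called. Bst2 encodes tetherin, which holds budding virions at the cell surface. It read 3.00 and 2.92 for MDSC (conv.), 2.76 and 2.55 for 6G- BM-MDSC and 4.35 and 4.22 for DCs. The 3 groups did not overlap, and DCs were 2.51-fold above MDSC (conv.) (adjusted p = 0.00175) and 3.09-fold above 6G- BM-MDSC (adjusted p = 0.00099). The products of Ifitm1 and Ifitm3 block virus entry. Ifitm1 read 6.61 and 6.72, then 6.26 and 6.64, then 7.68 and 7.54, with differences of -0.94 and -1.16 (adjusted p = 0.0118 and 0.00616). Ifitm3 read 5.42 and 5.51, then 5.16 and 5.31, then 5.75 and 5.42, and did not pass (adjusted p = 0.55 and 0.112).

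The interferon-inducible GTPases, which act on pathogen-containing vacuoles, split by gene. Gbp3 read 1.49 and 1.38 for MDSC (conv.), 1.57 and 1.35 for 6G- BM-MDSC and 2.69 and 2.73 for DCs, so that DCs were 2.42-fold and 2.37-fold higher (adjusted p = 0.0019 and 0.00195). Gbp2 read 2.75 and 2.65, then 3.03 and 2.83, then 3.88 and 3.87, with differences of -1.18 and -0.95 (adjusted p = 0.0019 and 0.00333). Irgm1 was also lower in both groups, by -0.51 and -0.61 on the log2 scale, and its 4 probes agreed in direction. Iigp1 was dim, at -4.43 and -4.84 for MDSC (conv.), -5.59 and -6.71 for 6G- BM-MDSC and -3.62 and -3.24 for DCs. Neither 6G- BM-MDSC array was well above background for Iigp1. DCs were 3.98-fold higher when signals below the lowest one that was well above background on an array were raised to it. This floored estimate is not a firm lower limit and was not tested. The fitted log2 difference of -2.72 had an adjusted p of 0.00895 in limma. With normexp background correction the Iigp1 log2 difference was smaller than that floored estimate, at -0.83. The Iigp1 difference of -1.21 in MDSC (conv.) was not called (adjusted p = 0.0824). Igtp went the other way, at 2.52 and 2.38, then 2.67 and 2.76, then 2.32 and 2.30, and was higher in 6G- BM-MDSC (0.41, adjusted p = 0.0238) but not called in MDSC (conv.) (0.14, adjusted p = 0.265). The Igtp call was lost under 7 of 19 alternatives.

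Of the 7 remaining members, 4 were lower in both MDSC groups. Ifi27l2a, which encodes a small membrane protein, read 4.48 and 4.48 for MDSC (conv.), 4.27 and 4.53 for 6G- BM-MDSC and 6.23 and 6.07 for DCs. It was 3.19-fold and 3.37-fold lower in the MDSC (adjusted p = 0.00124 and 0.00106), and a second probe differed by -1.63 and -1.89. Xaf1, a pro-apoptotic gene, differed by -0.85 and -0.97, with the first call lost under 11 of 19 alternatives, and the ADP-ribosyltransferases Parp9 and Parp14 by -0.61 and -0.77 and by -0.45 and -0.39. Ifi35 read 4.79 and 4.76, then 4.99 and 4.83, then 5.21 and 5.11, and was lower in MDSC (conv.) alone (-0.39, adjusted p = 0.034), a call lost under 6 of 19 alternatives. The chaperone Rtp4 (-0.66 and -0.69) and the nuclear body protein Sp100 (-0.13 and -0.14) were not called. Ifi44, below the filter, was well above background on replicate 1 of MDSC (conv.) and on no other array.

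Single arrays weighed on these counts. Without MDSC (conv.) replicate 2, the counts for MDSC (conv.) were 9 lower (against 6.50% of all genes) and 1 higher (against 6.27%), and without DC replicate 1 the lower count was 10 (against 8.01%), each fit taking the lone array to vary like the others. In 6G- BM-MDSC, the higher count went from 4 to 2 without 6G- BM-MDSC replicate 1, without its replicate 2, or without DC replicate 2, where 9.44%, 7.69% and 9.29% of all genes were higher. Student's t-test, which the paper's methods list in general and not for the arrays, called 0 members in either comparison after Benjamini-Hochberg adjustment. Without adjustment it called 3 higher and 16 lower for MDSC (conv.) (against 14.3% and 18.1% of all genes), and 4 higher and 17 lower for 6G- BM-MDSC (against 16.3% and 18.0%).

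Removal of Ly-6G+ cells before culture was examined by comparing the MDSC groups. No member passed: limma called 0 of 39 higher and 0 lower in 6G- BM-MDSC, where 0.00457% and 0.00915% of all genes were called. At an unadjusted p below 0.05, 1 member was higher (against 4.18% of all genes) and 4 were lower (against 6.60%). Student's t-test without adjustment called 0 higher (against 3.86%) and 2 lower (against 4.29%). The median member difference was -0.08, beside 0.00372 for all genes, and it lay between -0.14 without MDSC (conv.) replicate 2 and -0.05 without its replicate 1. The arrays did not overlap for 10 members that were higher in 6G- BM-MDSC (25.6%, against 22.4% of all genes) and for 13 that were lower (33.3%, against 21.8% of all genes).

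The 8 members with the smallest unadjusted p were Isg15, Iigp1, Igtp, Bst2, Cmpk2, Mx2, Usp18 and Gbp2, whose array values are given above. Isg15 differed by -0.51 (SE 0.13, unadjusted p = 0.0113, adjusted p = 0.342 in limma). The Iigp1 excess of MDSC (conv.) was 1.73-fold by the floored estimate, which was not tested. Its fitted log2 difference of -1.51 had an adjusted p of 0.348 in limma, and was -0.25 with normexp background correction. Bst2, Cmpk2, Mx2 and Usp18 read lower in both 6G- BM-MDSC arrays, by log2 differences of -0.30, -0.29, -0.30 and -0.40. Igtp and Gbp2 read higher in both, by 0.26 and 0.23. These differences did not pass over all genes, which does not show that the groups were alike. The log2 summed signal of the 7 plasmacytoid dendritic cell markers was 5.97 and 6.07 for MDSC (conv.) and 4.81 and 4.59 for 6G- BM-MDSC. It was 6.54 and 4.41 for DCs, where Siglech had a value on 1 array only. Such a sum gives bright markers the most weight. The median difference of these 7 markers between the MDSC groups was -0.23, and 0 were called. The other marker sums differed less between the MDSC groups, and the part of any marker list in the member differences was not tested. Isg15 and Cmpk2 were the 2 members that Student's t-test called without adjustment.

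Other parts of the pathway were examined from lists of genes outside the 41. Of 18 interferon genes on the array, 9 were tested and 8 were not well above background on any array, among them Ifnb1 and Ifng. Of the 9 tested, 1 was lower than DCs in each comparison (against 15.8% and 17.8% of all genes). Higher in each were 0 (against 13.4% and 15.0%). Ifnl3, an interferon lambda, was the 1 that passed, at -1.21 and -1.38 for MDSC (conv.), -1.75 and -1.57 for 6G- BM-MDSC and -0.43 and -0.57 for DCs. These 3 interferon genes are named after their values were seen, and interferon alpha genes are so alike that their probes may not tell them apart.

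Of the 6 receptor genes, 2 were higher in both MDSC groups (against 11.3% of all genes) and 0 were lower (against 13.1%). Ifnlr1, the specific chain of the interferon lambda receptor, was higher by 0.68 and 1.15 (adjusted p = 0.0338 and 0.00748), and its partner chain Il10rb by 0.43 and 0.55 (adjusted p = 0.0172 and 0.00843). Ifnar1, Ifnar2, Ifngr1 and Ifngr2 were not called. Of the 5 signal transducers examined, 4 were lower in the conventional cells (against 15.8% of all genes) and 3 in 6G- BM-MDSC (against 17.8%). Tyk2 had the largest difference, at -0.93 and -1.07 (adjusted p = 0.00296 and 0.00193), followed by Jak2 (-0.65 and -0.59). Irf9, the DNA-binding partner of STAT2, differed by -0.51 and -0.50 (adjusted p = 0.009 and 0.00887). Stat3 passed in MDSC (conv.) alone, and Jak1 in neither.

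**Figure D4:**
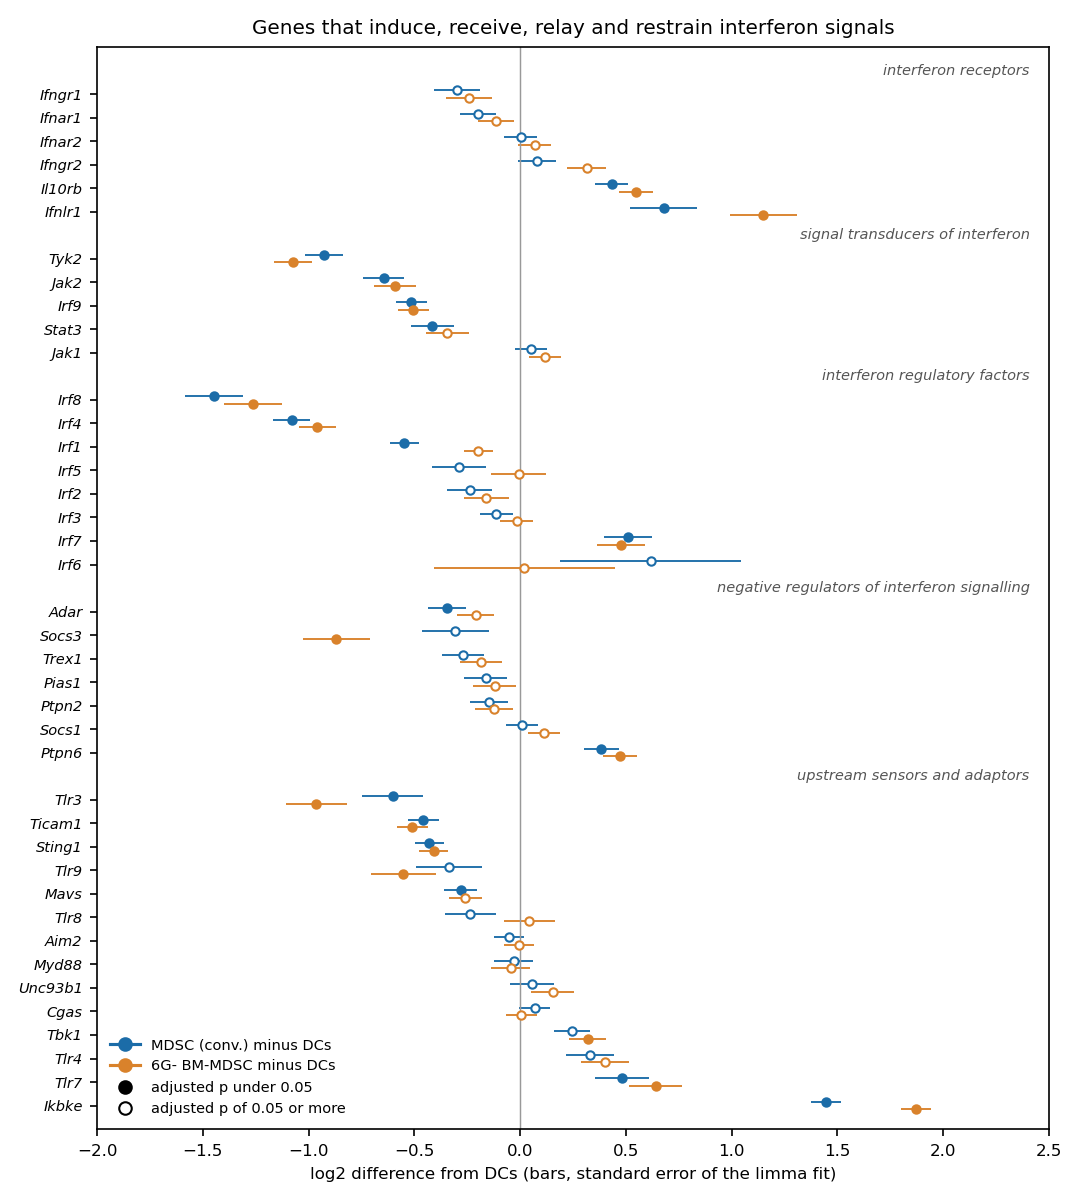
Log2 difference from DCs (x axis, bars show the standard error of the limma fit) of receptors, signal transducers, interferon regulatory factors, negative regulators and upstream sensors in both MDSC groups; filled points have an adjusted p under 0.05. Tyk2, Jak2, Irf9, Irf4 and Irf8 lie to the left in both groups, and Ifnlr1, Il10rb, Irf7 and Ikbke to the right.

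Interferon regulatory factors went both ways. Irf8 and Irf4, factors of dendritic cell development, differed from DCs by -1.45 and -1.08 in MDSC (conv.) (adjusted p = 0.00268 and 0.00184). In 6G- BM-MDSC they differed by -1.26 and -0.96 (adjusted p = 0.00379 and 0.00247). Irf7, itself induced by interferon, was higher, at 2.79 and 2.78 for MDSC (conv.), 2.71 and 2.79 for 6G- BM-MDSC and 2.42 and 2.13 for DCs (adjusted p = 0.0302 and 0.0335). Irf1 was lower in MDSC (conv.) (-0.55, adjusted p = 0.00595) and read -0.20 in 6G- BM-MDSC (adjusted p = 0.0832). Of the 14 upstream sensors and adaptors, MDSC (conv.) had 2 higher and 4 lower (against 13.4% and 15.8% of all genes). For 6G- BM-MDSC the counts were 3 and 4 (against 15.0% and 17.8%). The kinase Ikbke was higher by 1.45 and 1.87 (adjusted p = 0.000513 and 0.000284), and Tlr7 by 0.48 and 0.64. Tlr3, the endosomal receptor for double-stranded RNA, was lower by a log2 difference of -0.60 and -0.96. Of the 7 negative regulators, 1 was higher and 1 lower in each comparison. These counts lay near the shares of all genes, 13.4% and 15.8% for MDSC (conv.) and 15.0% and 17.8% for 6G- BM-MDSC. The phosphatase Ptpn6 was higher by 0.38 and 0.47, while Adar was lower in MDSC (conv.) (-0.35, adjusted p = 0.0442) and Socs3 in 6G- BM-MDSC (-0.87, adjusted p = 0.0161).

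A further 61 interferon-induced genes that are not on the member list were tested. In MDSC (conv.), 27 were lower (against 15.8% of all genes) and 5 higher (against 13.4%), with a median of -0.35, beside -0.03 over all genes. In 6G- BM-MDSC, 29 were lower (against 17.8% of all genes) and 7 higher (against 15.0%), with a median of -0.34, beside -0.04. Between the MDSC groups, 0 were called. Genes of this list with large fitted differences were not all of that direction. Slfn1, a Schlafen gene, was higher by 2.07 and 2.39, and Ly6a, which encodes Sca-1, by 1.96 and 1.71. Ifit1bl1 and Gbp6 were each near background in the group where they were low, so their fitted differences have no rank. Ifit1bl1, a relative of Ifit1, lay below the background limit on both DC arrays. By the floored estimate the Ifit1bl1 excess over DCs was 3.75-fold for MDSC (conv.) and 2.29-fold for 6G- BM-MDSC. Gbp6 was not well above background in MDSC (conv.) and was 1.87-fold higher in DCs by that estimate. These estimates are not firm lower limits and were not tested.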

How the data were processed

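Total RNA of 6 samples was labelled with 1 dye and hybridised to Agilent mouse arrays. The authors deposited the scanner output, in which the processed signal is a background-subtracted intensity per spot that was not normalized between arrays. The file headers name Agilent Feature Extraction 10.7.3.1 and the build mm9, whereas the submitters' processing notes have version 10.5.1.1. The array design in the headers differs from the one named in the methods. The deposited value table equalled the scanner intensities within 0.005 and served as an alternative.

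Here spots marked as outliers were left out, spots of a probe were averaged, and log2 of the intensity over the 75th percentile of each array was taken. Accessions matched a RefSeq gene table for 58.3% of the 56605 probes, which updated older symbols. Probes well above background on both arrays of any group were kept (33482), and the brightest stood for its gene, giving 21860 genes, 9 of them with a missing array value. One limma fit (version 3.58.1, R 4.3.3) over all 6 arrays gave the 3 group differences, adjusted by Benjamini-Hochberg over all genes, with 3 residual and 1.96 prior degrees of freedom. This was checked on simulated data.

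The members, roles, marker lists and pathway lists were chosen with earlier results of these data known. Array values are printed for members called in both DC comparisons (the 8 largest each way), in 1 of them (the 4 largest), for the 8 smallest p between MDSC groups and for the 3 highest mean signals over all arrays (Ifitm1, Ifitm3 and Samhd1). Those of Rsad2 and Oas1g were added after they were seen. Up to 4 genes of a pathway list or 3 of a marker list are named (all receptors and the transducers examined). A pathway gene is not reported here. The number of arrays limits the precision. Alternatives covered background correction, normalization, the filter, the probe rule, the samples fitted, the test and each array left out. Marker lists not described in the results gave these counts of genes higher and lower than in DCs. For MDSC (conv.) they were 1 and 2 of 7 monocyte markers, 2 and 2 of 7 plasmacytoid dendritic cell markers, 4 and 0 of 7 B cell markers, 3 and 2 of 7 T and NK cell markers, 6 and 0 of 6 basophil and mast cell markers, 3 and 1 of 6 eosinophil markers and 1 and 0 of 2 erythroid markers. For 6G- BM-MDSC they were 3 and 2, 2 and 4, 4 and 0, 3 and 2, 6 and 0, 2 and 1, and 1 and 0. Among all genes, 13.4% were higher and 15.8% lower for MDSC (conv.), and 15.0% and 17.8% for 6G- BM-MDSC. Siglech, a plasmacytoid marker, was measured on 1 DC array.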

Additional observations from a re-analysis of the deposited data

How the results depend on the processing

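No called member, and none of the 8 followed between MDSC groups, changed direction under the 19 alternatives (18 for Iigp1, which the strictest filter removed). Student's t-test with Benjamini-Hochberg adjustment called 0 members higher and 0 lower than DCs in each MDSC group. Of all genes it called 4 and 3 for MDSC (conv.) and 41 and 25 for 6G- BM-MDSC. A demand for a difference of at least 2-fold left 1 higher and 8 lower for MDSC (conv.), 1 and 10 for 6G- BM-MDSC, and 1163 and 825 and 1171 and 1001 of all genes. Without adjustment, that t-test called 2 members and 4.29% of all genes lower in 6G- BM-MDSC than in MDSC (conv.). When probes of a gene were averaged, the median member difference between MDSC groups was -0.15. Leaving out each array in turn, members called in MDSC (conv.) ranged from 1 to 3 higher and 9 to 15 lower with medians from -0.49 to -0.34, and in 6G- BM-MDSC from 2 to 3 higher and 12 to 17 lower with medians from -0.52 to -0.25. All genes called then ranged from 1371 to 2459 higher and 1420 to 3006 lower in MDSC (conv.), beside 2922 and 3457 with all arrays, and from 1681 to 2760 and 1947 to 3242 in 6G- BM-MDSC, beside 3278 and 3889. Without the filter on dim probes, 8700 and 8752 of all 37325 genes were lower than in DCs. Between the MDSC groups, 1 gene was higher and 2 lower, which became 11 and 53 once the prior variance depended on intensity, 2 and 7 after normexp, and 0 and 0 for probes detected on all arrays. The replicate block gave 2 members higher and 16 lower for MDSC (conv.) (against 12.7% and 14.5% of all genes). For 6G- BM-MDSC it gave 4 and 17 (against 14.4% and 17.0%). Between MDSC groups it gave 0 either way (against 0.00457% and 0.00915%). Deviations of arrays with the same number correlated at 0.11, 0.12 and 0.04, and numbers 1 and 2 pair no samples by the labels. The remaining settings kept the member counts within 1.5 times of those given. The 2 arrays of each group limit what small differences can be called, and Iigp1 and Ifi44 lie near background.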
